A study of Mus musculus with 16 samples.

Results

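Chromatin at the genes of 10 inflammatory cytokine receptor chains was followed in activated mouse CD8+ T cells that were cultured with or without an inhibitor of the histone demethylase LSD1. The 10 genes were Il12rb1, Il12rb2, Il18r1, Il18rap, Il1rl1, Il21r, Il4ra, Il6st, Il27ra and Il10ra, of 26089 curated RefSeq genes on chromosomes 1 to 19 and X. They were chosen by name and not by a cutoff on a measured value. Earlier results of these data were known when they were chosen. For each gene, every called peak that touched the gene body or the 30 kb on either side of it was taken from 12 chromatin immunoprecipitation sequencing (ChIP-seq) peak lists. The windows of neighbouring genes merged into 7 loci with a total length of 791 kb. The receptor genes were long, with a median of 32.7 kb against 13.5 kb over all genes, so their windows offered more room for peaks than those of an average gene.

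The cells came from spleens of OT1 mice, a line in which CD8+ T cells bear 1 transgenic receptor against ovalbumin. Both arms received antibodies against CD3 and CD28 together with 20 ng/mL IL-2 for 48 h, followed by an expansion of 3 days in IL-2. GSK2879552 (GSK), an irreversible LSD1 inhibitor, was present at 0.5 μM throughout in one arm, and its vehicle (Veh) in the other. RNA polymerase II (Pol II), LSD1 and the histone marks H3K27ac, H3K4me1, H3K4me2 and H3K4me3 were each profiled in 1 deposited library per arm. A repeat of the experiment that the study mentions was not analysed here, and whether cells of several animals were pooled was not stated.

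Cytokine receptors are assembled from chains, and the chains a T cell makes decide which cytokines it can answer. The chains studied here signal through JAK kinases and STAT factors, except for the IL-18 and IL-33 receptors, which belong to the IL-1 receptor family and signal through MyD88 and IRAK kinases. The mono- and dimethyl marks H3K4me1 and H3K4me2, typical of enhancers and of promoter flanks, are the substrates of LSD1. H3K4me3 is typical of promoters, and H3K27ac of promoters and enhancers in use.

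With 1 library per antibody and arm, no difference could be set against a spread between replicates, and no test was made. Values are the fold enrichment and −log10 p that the authors' peak caller gave to each peak. Because folds of separate libraries are not on 1 scale, each fold is also given as a percentile, the share of peaks in its own list with a fold no higher. The GSK lists held fewer peaks than the Veh lists for H3K27ac (2751 against 7410) and H3K4me2 (9437 against 15219), and more for H3K4me1 (40272 against 34387). Read totals given by the study were likewise lower in GSK cells for H3K27ac and H3K4me2 and higher for H3K4me1. They were also higher in GSK cells for Pol II, whose lists were of near length (15401 peaks in GSK and 15638 in Veh cells). The part of depth in single calls and ranks was not tested. A call in 1 arm only is therefore read beside the same count over all genes or all regions. The label was checked against marker genes. H3K4me3 promoter peaks were called at 7 of 7 T cell genes in both arms, at 0 of 4 B cell genes, 0 of 2 NK cell genes, neither Cd4 nor Foxp3, and 1 of 4 myeloid genes (Cd14).

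LSD1 occupied the receptor loci unevenly, and the sites found again in GSK cells were concentrated at Il4ra and Il21r. The windows held 31 LSD1 peaks in each arm. Of the Veh peaks, 17 were overlapped by a GSK peak (54.8%, Wilson 95% interval 37.8 to 70.8%), close to the 54.6% of the whole Veh list. Away from promoters, defined as 1 kb on each side of a transcription start site (TSS), 13 of 24 Veh LSD1 peaks were overlapped (54.2%, interval 35.1 to 72.1%), beside 34.9% of all such peaks. Of these 13, 8 lay at Il4ra and Il21r (8 of 8), and the other loci ranged from 0 of 3 at Il12rb2 to 2 of 2 at Il12rb1. At promoters, 4 of 7 Veh LSD1 peaks were overlapped (57.1%, interval 25.0 to 84.2%), beside 83.0%, and 3 of those 7 lay at promoters of other genes in the windows (Mast3, Arrdc2 and Misp3). All intervals cover counting error only, and neighbouring peaks are not independent.

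The strength of the peaks moved with these shares, and its part in them was not tested. The 13 peaks that were overlapped had a median −log10 p of 12.5, from 5.32 to 33.0, against a median of 6.55, from 3.71 to 18.0, for the other 11. Among peaks away from promoters with a −log10 p of at least 10, 12 of 14 in the windows were overlapped (85.7%), beside 70.9% of the whole list. Between 5 and 10 it was 1 of 7, beside 34.6%, and below 5 it was 0 of 3, beside 9.80%. The 2 strong sites without a GSK peak lay upstream of Il6st and within Il12rb2.

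**Figure D1:**
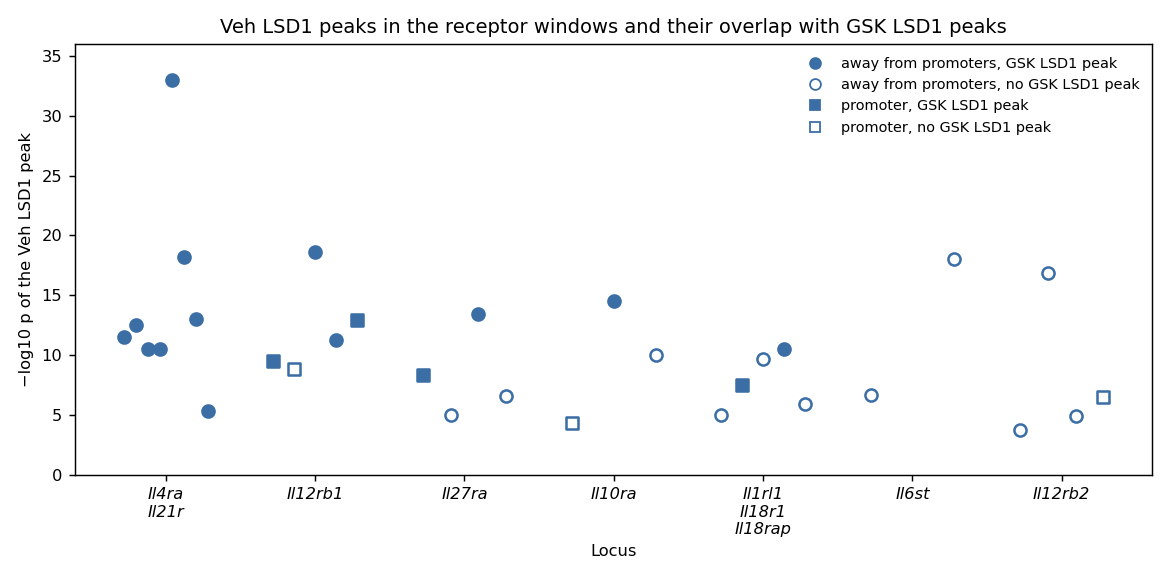
Each point is 1 Veh LSD1 peak in the receptor windows, grouped by locus, with its −log10 p on the y axis. Filled symbols have an overlapping GSK LSD1 peak and open symbols have none, circles lie away from promoters and squares at promoters. All 8 points at Il4ra and Il21r are filled, all 4 at Il12rb2 and both at Il6st are open.

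The DNA at the sites that set these groups apart is given here for 100 bases on each side of the summit of the Veh LSD1 peak, read 5′ to 3′ on the plus strand of GRCm38.p6 (RefSeq genome). The first 4 are the strongest Veh LSD1 sites away from promoters without a GSK LSD1 peak, and the last 2 are the strongest with one. Capitals mark the letters of 7 short motifs searched on both strands. These were CCGGAA or its relative AGGAAG for ETS factors, TGTGGTT for RUNX factors, TGANTCA for AP-1, TTCNNNGAA for STAT factors, AGGTGTGA for T-box factors, AAATCAC for GFI1 and AGATAA for GATA factors.
Il6st, 23.9 kb upstream of the TSS, intergenic, chr13:112440066-112440266: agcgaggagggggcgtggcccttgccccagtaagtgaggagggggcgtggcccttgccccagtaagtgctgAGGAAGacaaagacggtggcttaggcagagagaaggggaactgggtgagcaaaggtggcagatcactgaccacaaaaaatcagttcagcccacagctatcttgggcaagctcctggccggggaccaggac
Il12rb2, intron 7, chr6:67348034-67348234: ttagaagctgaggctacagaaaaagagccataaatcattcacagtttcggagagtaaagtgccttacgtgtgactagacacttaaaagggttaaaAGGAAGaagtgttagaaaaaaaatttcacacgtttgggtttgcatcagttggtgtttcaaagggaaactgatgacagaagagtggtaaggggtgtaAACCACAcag
Il10ra, 22.9 kb upstream of the TSS, intergenic, chr9:45291901-45292101: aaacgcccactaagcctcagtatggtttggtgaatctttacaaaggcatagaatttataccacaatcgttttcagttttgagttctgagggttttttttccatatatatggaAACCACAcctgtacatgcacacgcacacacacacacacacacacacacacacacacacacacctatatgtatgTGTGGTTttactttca
Il18r1, intron 1, chr1:40470059-40470259: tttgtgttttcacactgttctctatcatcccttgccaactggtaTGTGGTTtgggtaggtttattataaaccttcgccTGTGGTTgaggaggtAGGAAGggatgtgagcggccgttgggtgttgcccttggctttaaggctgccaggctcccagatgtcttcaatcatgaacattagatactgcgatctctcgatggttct
Il21r, 2.01 kb upstream of the TSS, intergenic, chr7:125601316-125601516: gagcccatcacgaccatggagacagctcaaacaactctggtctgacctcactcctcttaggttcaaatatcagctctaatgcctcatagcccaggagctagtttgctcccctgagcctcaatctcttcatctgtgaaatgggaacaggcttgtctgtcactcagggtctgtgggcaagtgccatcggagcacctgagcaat
Il12rb1, intron 4, chr8:70811384-70811584: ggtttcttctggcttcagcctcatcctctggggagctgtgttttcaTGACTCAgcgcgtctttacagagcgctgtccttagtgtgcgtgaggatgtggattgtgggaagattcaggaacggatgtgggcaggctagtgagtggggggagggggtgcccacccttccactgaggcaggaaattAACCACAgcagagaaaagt

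RUNX letters, the motif of a factor family central to CD8+ T cells, stood in 3 of the 4 sites without a GSK peak and in 1 of the 2 with one. Over all 24 Veh LSD1 sites away from promoters they stood in 6 (25%), beside 15.1% of the 12563 such peaks of the whole list, and the 6 split into 3 of 13 overlapped and 3 of 11 other sites. ETS letters stood in 8 of 24 (33.3%), beside 38.2%, and AP-1 letters in 3 of 24 (12.5%), beside 13%. STAT letters were found in 1 of 24 (4.17%), beside 8.24%, and the letters of the T-box, GFI1 and GATA motifs in 0 of 24, beside 1.76%, 3.26% and 8.27%. With 50 bases on each side of the summit in place of 100, RUNX letters stood in 2 of 24 sites. The strongest site of all, upstream of Il21r, held none of the 7 motifs in this window.

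At Il12rb2, the chain specific to the IL-12 receptor, LSD1 peaks were called in the gene in Veh cells only, while H3K27ac was called in both arms. The 4 Veh LSD1 peaks lay at the promoter (fold 3.64, −log10 p 6.46), in intron 1 at 9.20 kb from the TSS (fold 3.69, −log10 p 4.91), in intron 7 at 28.1 kb (fold 6.97, −log10 p 16.9) and in intron 10 at 71.5 kb (fold 3.25, −log10 p 3.71). None was overlapped in GSK cells, and the 1 GSK LSD1 peak in the window lay at the promoter of Serbp1, downstream of the gene. The intron 7 peak ranked 1700 of 21252, at the 92.5 percentile of Veh folds. Over the whole Veh list, 65.5% of LSD1 peaks away from promoters with a −log10 p from 10 to 20 were overlapped in GSK cells. From 3 to 5, the range of the intron 1 and intron 10 peaks, it was 9.8%. For promoter peaks from 5 to 7, the range of the Il12rb2 promoter peak, it was 79.6%.

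The intron 7 site carried H3K27ac in both arms, with a fold of 3.67 in Veh and 4.54 in GSK cells (percentiles 35.5 and 29.5). Pol II was called there in Veh cells, at a fold of 5.53 (−log10 p 10.0), and not in GSK cells. The whole Veh list had 81.5% of its Pol II peaks of that strength away from promoters (−log10 p from 10 to 20) overlapped in GSK cells. An H3K4me1 region (6:67347540 to 67350113, merged over both arms) covered the site and was called in both. In GSK cells its peak ended short of the LSD1 summit, and in Veh cells it reached over the summit.

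The Il12rb2 promoter was the only receptor promoter with H3K27ac peaks in both arms. Its H3K27ac fold was 3.90 in Veh and 5.17 in GSK cells (percentiles 49.7 and 63.4), its Pol II fold was 3.70 and 4.19 (percentiles 41.4 and 74.6), and its H3K4me3 fold was 5.22 and 5.14 (percentiles 39.7 and 37.0). H3K4me1 was called beside it in both arms, and a second annotated TSS inside the gene carried H3K4me1 alone. H3K4me2 was called in Veh cells only, in intron 1 at 2.06 kb (fold 3.06, the 1.95 percentile). H3K4me1 was called in GSK cells only at 2 places, in intron 8 (fold 4.09) and 12.8 kb upstream (fold 4.98).

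**Figure D2:**
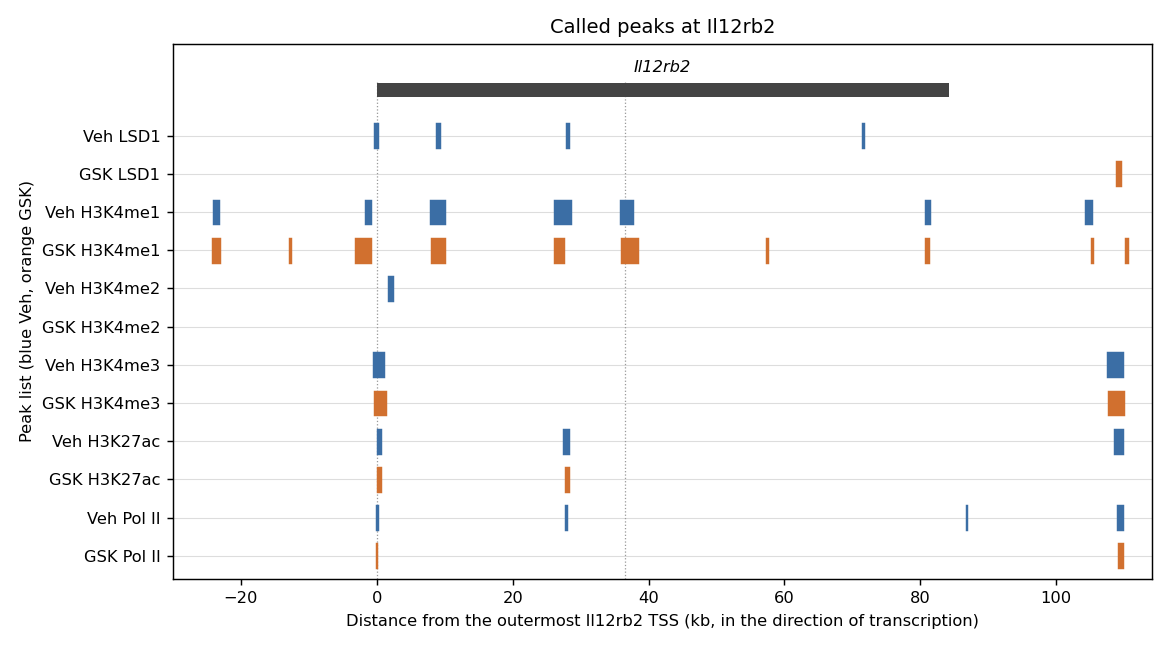
Called peaks of the 12 lists (rows, blue Veh and orange GSK) along Il12rb2, as distance in kb from its outermost TSS in the direction of transcription. Bars are drawn to scale with a thin outline, the dark bar is the gene and dotted lines are annotated TSSs. The Veh LSD1 row has 4 peaks in the gene and the GSK LSD1 row none, while the H3K27ac bars at the promoter and 28.0 kb inside the gene appear in both arms.

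At Il4ra and Il21r, which lie head to tail on chromosome 7, every Veh LSD1 peak was found again in GSK cells. Il4ra is the chain shared by the IL-4 and IL-13 receptors, and Il21r binds IL-21 together with the common γ chain. All 8 Veh LSD1 peaks lay away from promoters, and all 8 were overlapped, while the GSK list added 2 more, in exon 6 of Il21r (fold 5.23) and between the genes at 9.29 kb upstream of the Il21r TSS (fold 4.38). The strongest lay 2.01 kb upstream of the Il21r TSS, at a fold of 7.29 in Veh cells (−log10 p 33.0, rank 385) and of 5.94 in GSK cells (−log10 p 17.5, rank 1317). The percentiles were 93.8 and 81.7. It lay inside an H3K4me1 peak that was called in both arms from 125599894 to 125603020 in Veh cells.

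Between the genes, about 9.7 kb upstream of Il21r, was a site with peaks of all 6 antibodies that was not an annotated promoter. H3K27ac reached from 125592975 to 125594484 in Veh cells (fold 4.38, −log10 p 16.2), the highest −log10 p of the Veh H3K27ac peaks in the receptor windows, and had a fold of 4.82 in GSK cells. H3K4me3 was called there in both arms (folds 5.56 and 6.14, percentiles 46.8 and 57.4). LSD1 was called in both (4.22 and 4.32), and so was Pol II (4.24 and 5.93, percentiles 58.2 and 92.5). H3K4me1 was called at its edge in both arms, and H3K4me2 in Veh cells only (fold 3.93). The Pol II percentile there was above that of the Il21r promoter in both arms.

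The gene promoters carried H3K4me3 with lower folds and higher −log10 p than that site, where the −log10 p was 16.0 in Veh and 17.7 in GSK cells. The Il21r promoter had H3K4me3 in both arms (folds 3.69 and 3.57, −log10 p 82.8 and 72.7), Pol II in both (folds 3.35 and 3.87, percentiles 23.8 and 67.0) and no H3K27ac in either. The Il4ra promoter had H3K4me3 in both (folds 3.56 and 3.68, −log10 p 101.0 and 87.4), H3K27ac in Veh cells only at a fold of 2.63 (the 2.25 percentile), and no Pol II. In intron 1 of Il4ra, 2.37 kb from the TSS, LSD1 was called in both arms (4.74 and 4.47), H3K27ac in Veh cells only (fold 2.5) and Pol II in GSK cells only (fold 3.07). H3K4me2 was called at 5 places of the locus, all in Veh cells only. H3K4me3 also marked 2 further places in both arms that were no annotated promoters: the LSD1 site 22.1 kb upstream of Il21r (4.19 and 5.24) and intron 8 of Il21r (6.59 and 6.35).

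**Figure D3:**
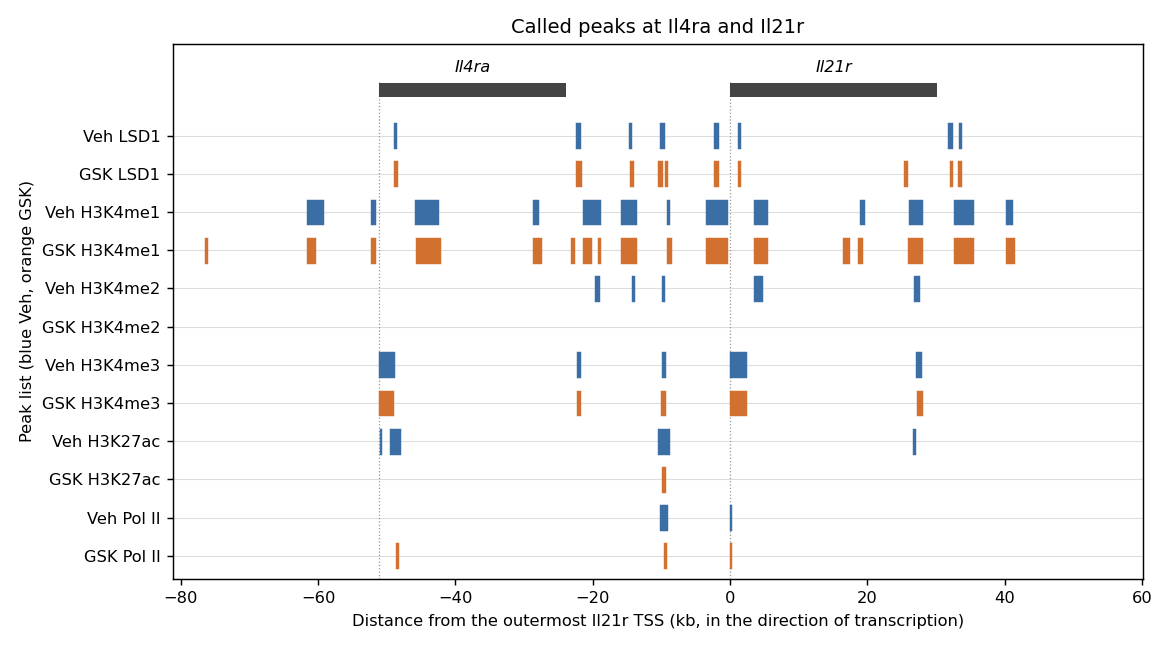
Called peaks of the 12 lists (rows, blue Veh and orange GSK) at Il4ra and Il21r, as distance in kb from the Il21r TSS in the direction of transcription. Bars are drawn to scale with a thin outline, dark bars are the genes and dotted lines the TSSs. Each of the 8 Veh LSD1 bars has a GSK bar under it, and LSD1, H3K4me3, H3K27ac and Pol II bars of both arms stand together about 9.7 kb before the Il21r TSS.

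Il1rl1, Il18r1 and Il18rap stand in a row on chromosome 1, and differed in their promoter marks. Il1rl1 encodes ST2, the IL-33 receptor, Il18r1 the ligand-binding chain of the IL-18 receptor and Il18rap its accessory chain. Neither TSS of Il1rl1 had a promoter peak in any of the 12 lists, a pattern it shared with 10605 other genes (40.7% of genes, itself included). Its only Veh LSD1 peak lay in intron 6 (fold 3.73, −log10 p 4.97), with H3K4me1 called there in both arms, and had no GSK counterpart. The only GSK LSD1 peak in Il1rl1 lay in intron 10 (fold 4.95, −log10 p 6.67) and had no Veh counterpart. Over the whole lists, 9.8% of Veh LSD1 peaks away from promoters with a −log10 p from 3 to 5 were overlapped. Of such GSK peaks from 5 to 7, 37.5% were overlapped.

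The Il18r1 promoter carried LSD1 in both arms, and its LSD1 peak ranked higher in GSK cells. The fold was 3.90 in Veh and 5.32 in GSK cells, and the percentiles were 38.1 and 71.1. Strong LSD1 promoter peaks were also more frequent in the whole GSK list. Those with a −log10 p from 10 to 20 were 3030 of 9928 in GSK and 1794 of 8689 in Veh cells. H3K4me3 was called in both (3.57 and 3.49), H3K27ac in Veh cells only (2.92, the 5.65 percentile) and Pol II in GSK cells only (3.40, the 43.5 percentile). In intron 1, 4.61 kb from the outermost TSS, a Veh LSD1 peak (fold 4.36, −log10 p 9.67) had no GSK counterpart, and at the same place Pol II was called in GSK cells only (fold 3.46, −log10 p 6.77). In intron 3, 10.2 kb from that TSS, LSD1 was called in both (5.03 and 4.6).

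The Il18rap promoter had H3K4me3 in both arms (3.25 and 3.66), and H3K27ac (3.38) and Pol II (4.03, the 53.4 percentile) in Veh cells only. The 1 LSD1 peak in Il18rap lay just beyond the promoter, 1.26 kb inside the gene, in Veh cells only (fold 3.76, −log10 p 5.95). Pol II was thus called in different arms at the promoters of the paired IL-18 receptor chains. These were calls of moderate strength. Over the whole Veh list, 47.9% of Pol II promoter peaks with a −log10 p from 5 to 7, the range of the Il18rap peak, were overlapped in GSK cells, and 75.4% of such GSK peaks were overlapped in Veh cells. H3K4me1 was called in GSK cells only at 6 places of this locus, with folds from 2.03 to 4.41. That was the highest count of any locus, and the window, with 3 genes merged, was also the longest, at 182 kb.

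**Figure D4:**
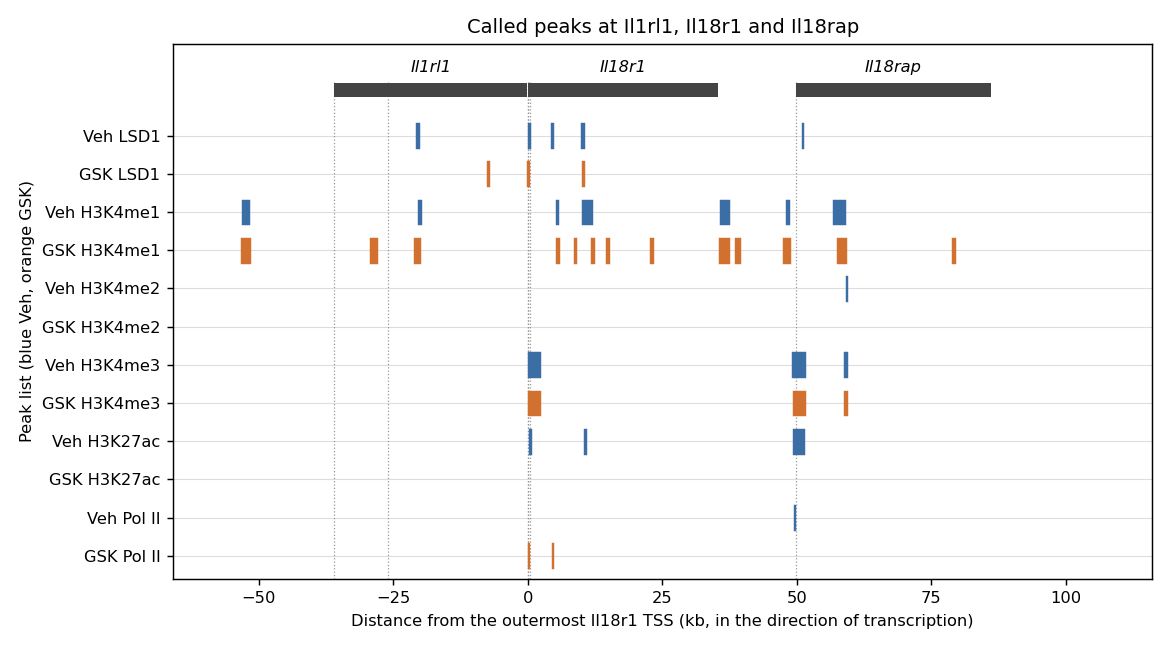
Called peaks of the 12 lists (rows, blue Veh and orange GSK) at Il1rl1, Il18r1 and Il18rap, as distance in kb from the outermost Il18r1 TSS. Bars are drawn to scale with a thin outline, dark bars are the genes and dotted lines the TSSs. H3K27ac bars appear in the Veh row only, the Veh Pol II bar stands at Il18rap and the GSK Pol II bars stand at Il18r1, and no bar stands at either Il1rl1 TSS.

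At Il6st, which encodes gp130, the signalling chain of the IL-6 family, the LSD1 sites of both arms were different sites. Veh cells had peaks 25.8 kb (fold 3.41) and 23.9 kb upstream (fold 6.31, −log10 p 18.0, rank 1440). GSK cells had peaks at the promoter (fold 4.53, −log10 p 8.20) and 45.1 kb downstream of the TSS (fold 6.56, −log10 p 11.4), beyond the end of the gene. Peaks of like −log10 p over the whole lists were mostly overlapped, except for those as weak as the Veh peak 25.8 kb upstream. Away from promoters, 26.4% of Veh LSD1 peaks from 5 to 7 and 65.5% from 10 to 20 were overlapped. Of GSK LSD1 peaks, 73.2% from 7 to 10 at promoters were overlapped, and 87.6% from 10 to 20 away from them. The promoter had the highest H3K4me3 percentile of the 10 genes (fold 5.71 in Veh and 5.66 in GSK cells, percentiles 50.0 and 47.9), H3K4me2 in Veh cells only (3.93), and neither H3K27ac nor Pol II in either arm. No H3K27ac peak was called anywhere in the Il6st window.

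Il27ra pairs with gp130 in the IL-27 receptor, and Il12rb1 is the chain shared by the IL-12 and IL-23 receptors. In exon 4 of Il27ra, 1.81 kb from the TSS, LSD1 was called in both arms with like folds (5.90 and 5.87). The Il27ra promoter had LSD1 in GSK cells only (3.36, the 11.5 percentile), H3K4me3 in both (5.50 and 5.45), H3K4me2 in both (4.19 and 3.79), and H3K27ac (3.80) and Pol II (4.10) in Veh cells only. At Il12rb1, LSD1 was called at the promoter in Veh cells only (3.44, the 18.5 percentile) and in intron 4, 3.04 kb from the TSS, in both arms (5.75 and 4.23, −log10 p 18.6 and 9.36). Its promoter had H3K4me3 in both (4.47 and 4.24) and H3K27ac in Veh cells only (3.10), and no Pol II in either arm.

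Il10ra, the ligand-binding chain of the receptor for the anti-inflammatory cytokine IL-10, had weak LSD1 promoter peaks in both arms (3.09 and 3.33, percentiles 8.59 and 10.7) that did not overlap each other. They stood on either side of the first exon's end, at 0.081 and 0.487 kb from the TSS. A stronger site 10.9 kb upstream was called in both (6.23 and 7.88, percentiles 88.2 and 95.4), and the site 22.9 kb upstream whose sequence is given above in Veh cells only (4.79). In GSK cells only, LSD1 was called 5.6 kb upstream (3.05) and 32.7 kb downstream of the TSS (4.38), beyond the end of the gene. At the former of these, Pol II was also called in GSK cells only (3.46). Pol II stood at the promoter in Veh cells only, with the highest percentile of any Veh receptor promoter (fold 5.07, percentile 73.3). Of Veh Pol II promoter peaks with a −log10 p from 7 to 10, as this one, 62.8% over the whole list were overlapped in GSK cells.

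Across the 10 promoters, H3K4me3 was shared by nearly all, with the same calls in both arms. It was called at 9 of 10, all but Il1rl1, in Veh (50.2% of all genes) and in GSK cells (51.3%), with 49.8% of all genes called in both. All 23 Veh H3K4me3 peaks of the windows were overlapped by the 23 GSK peaks, as were 99.3% of all Veh H3K4me3 peaks at promoters and 92.0% of those away from them. The GSK minus Veh change of the fold percentile at the 9 promoters had a median of -1.92 points, from -5.50 at Il12rb1 to 3.61 at Il18rap. Ranking by −log10 p gave a median of -0.329 and a wider range, from -10.4 at Il12rb1 to 9.99 at Il18rap. By fold and by −log10 p, the signs were opposite at Il6st (-2.12 and 9.45), Il4ra (1.62 and -5.33) and Il18r1 (-0.354 and 0.563).

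H3K27ac was called at 7 promoters in Veh cells (20.6% of all genes) and at 1 in GSK cells (8.61%), with 8.28% of all genes called in both. The 6 in Veh cells only (12.3% of all genes) were Il18r1, Il18rap, Il12rb1, Il27ra, Il4ra and Il10ra. Their folds were 2.63 to 3.80, all below the Veh list's median of 3.90. Between a fold of 2.5 and 3.5, which holds 5 of the 6, there were 1757 peaks in the Veh list and 70 in the GSK list, and between 3.5 and 4.5, which holds Il27ra, 3906 and 684, though folds of separate libraries are not on 1 scale. When both lists were held to the same number of top peaks by −log10 p, Il12rb2 was the only one called in either arm. That cut kept 2751 peaks per list, and the 6 Veh-only peaks ranked from 4532 (Il18rap) to 6390 (Il18r1) in the Veh list. It could therefore only remove them, and says nothing about a loss. The missing GSK calls are not read as a loss of H3K27ac, which was not tested.

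Pol II was called at 5 promoters in Veh cells (29.4% of all genes) and 3 in GSK cells (25.0%). Il12rb2 and Il21r had it in both, and both ranked higher in GSK cells. Il18rap, Il27ra and Il10ra had it in Veh cells only (3 of 10, beside 7.35% of all genes) and Il18r1 in GSK cells only (1 of 10, beside 2.95%). H3K4me1 was called at Il12rb1, Il12rb2, Il21r and Il4ra in both arms (4 of 10, beside 30.4% in Veh cells, 36.9% in GSK cells and 27% in both), and their percentiles fell at 3 of the 4. H3K4me2 was called at Il27ra, Il6st and Il10ra in Veh cells (39.2% of all genes) and at Il27ra in GSK cells (28.3%), so that Il6st and Il10ra had it in Veh cells only (2 of 10, beside 12.8%). No promoter had both H3K4me1 and H3K4me2.

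LSD1 promoter peaks were called at 4 receptor genes in Veh cells (36.5% of all genes) and at 4 in GSK cells (41.8%). Il18r1 and Il10ra had one in both arms (2 of 10, beside 32.0%), Il12rb1 and Il12rb2 in Veh cells only (2 of 10, beside 4.46%), and Il27ra and Il6st in GSK cells only (2 of 10, beside 9.78%). Both chains of the IL-12 receptor were thus called in Veh cells only, and both chains of the IL-27 receptor in GSK cells only. These peaks were of modest strength, and 88.4% of all Veh LSD1 promoter peaks with a −log10 p from 7 to 10 (8.80 at Il12rb1) and 79.6% of those from 5 to 7 (6.46 at Il12rb2) were overlapped in GSK cells. Of all GSK LSD1 promoter peaks, 54.5% from 5 to 7 (5.41 at Il27ra) and 73.2% from 7 to 10 (8.2 at Il6st) were overlapped in Veh cells. With 2.5 kb on each side of the TSS, 8 of 10 had a Veh LSD1 peak (39.3% of all genes) and 6 of 10 a GSK peak (44.3%), since the sites just outside Il18rap, Il27ra, Il21r and Il4ra then entered. Il27ra was then called in both arms, while Il12rb1 and Il12rb2 stayed in Veh cells only and Il6st in GSK cells only.

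**Figure D5:**
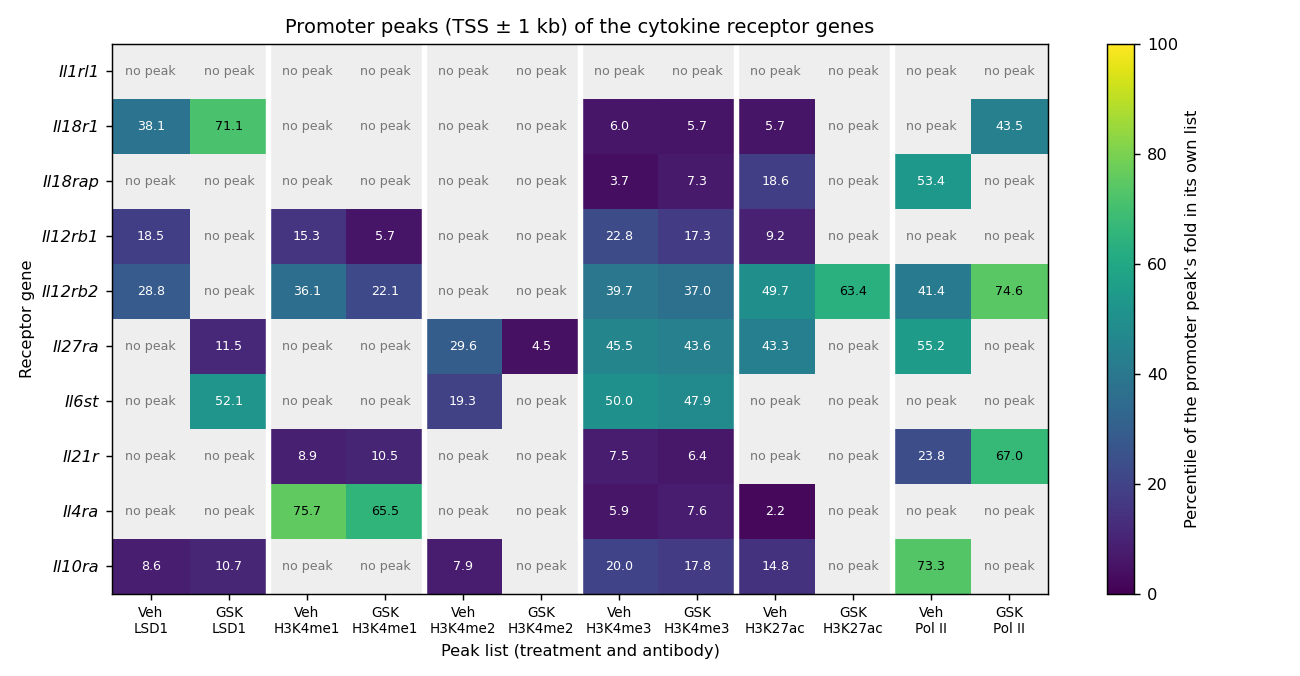
Promoter peaks (1 kb on each side of any TSS) of the 10 receptor genes (rows) in the 12 lists (columns, Veh and GSK side by side for each antibody). Colour and number give the percentile of the highest promoter peak's fold within its own list, and grey cells had no peak. H3K4me3 cells are filled in both arms for 9 genes, H3K27ac cells are filled for 7 genes in Veh and 1 in GSK, and the Il1rl1 row is empty.

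Away from promoters, H3K4me1 calls in GSK cells only outnumbered those in Veh cells only, as they did over the genome. Of 60 H3K4me1 regions of the merged lists in the windows, 41 were called in both arms (68.3%, beside 68.2% over the genome), 18 in GSK cells only (30.0%, beside 22.1%) and 1 in Veh cells only (1.67%, beside 9.74%). The 18 were small, with a median width of 412 bp against 1700 bp for the 41. None of the 18 overlapped an LSD1 peak of either arm, beside 9.66% of such regions over the genome. Of the 41, 11 overlapped a Veh LSD1 peak (beside 25.7% over the genome) and 10 a GSK LSD1 peak (beside 19.3%). The 18 were spread over 6 of the 7 loci, all but Il27ra. The only region of Veh cells alone lay 25.8 kb upstream of Il10ra (fold 2.74).

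H3K4me2 went the other way. Of 11 H3K4me2 regions away from promoters, 10 were called in Veh cells only (90.9%, beside 56.5% over the genome), 1 in both (35.3%) and 0 in GSK cells only (8.14%). The shared one lay in Palm3, a neighbour of Il27ra (folds 6.51 and 6.01). With lists of equal length, 6 were called in Veh cells only. Of the 10, 2 overlapped a Veh LSD1 peak (beside 31.3% over the genome) and 3 a GSK LSD1 peak (beside 25.3%), at Il21r and Il12rb1.

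By the study's definition, enhancers are merged H3K4me1 and H3K4me2 peaks outside H3K4me3 peaks and more than 2.5 kb from a TSS. Applied to the peak lists it gave 26676 enhancers, fewer than the study itself counted, so this is not the study's own set. Why the sets differ was not tested. The windows held 50 of the 26676, from 1 at Il27ra to 13 at Il4ra and Il21r. LSD1 was called at 9 in Veh cells (18.0%, interval 9.77 to 30.8%, beside 17.5%) and at 7 in GSK cells (14.0%, beside 12%), with 4 shared. H3K27ac was called at 6 in Veh cells (12%, interval 5.62 to 23.8%, beside 3.35%) and at 1 in GSK cells (2.00%, beside 0.705%). That 1 was the Il12rb2 intron 7 enhancer, which was also among the 6 in Veh cells. Of these 6, 3 lay beyond the end of Il10ra, at 18.4, 21.8 and 27.4 kb from its TSS. The last 2 of those stood in introns of a neighbouring gene, BC049352. Another lay at the edge of the site between Il4ra and Il21r, and the interval takes all 6 as independent.

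The signalling partners of these receptors were counted in the same way. Of 19 genes for shared receptor chains, JAK kinases, STAT factors and adaptors, 14 had a Veh LSD1 promoter peak (36.5% of all genes) and 13 a GSK peak (41.8%), 11 of them in both arms (32.0%). H3K4me3 was called at 18 of 19 in both arms (all but Il13ra1, beside 49.8% of all genes). H3K27ac was called at 9 in Veh cells (20.6%) and at 4 in GSK cells (Il10rb, Jak1, Jak3 and Stat3, beside 8.61%), and Pol II at 14 (29.4%) and 12 (25.0%). Over all 12 calls, Il2rg, the common γ chain with which Il21r and Il4ra pair, had the same promoter pattern as Il18rap, as did 18 further genes.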

How the data were processed

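The 12 deposited peak lists, 1 library each, were used, and the 4 input samples, which have no peak list, were not. The authors had mapped reads to mm10 (Bowtie2), taken out duplicates (Samtools) and made the lists in MACS2 with input as control, using a p-value cutoff of 0.001. A fold enrichment, the ratio of ChIP signal to background, was deposited per peak. So were −log10 p and −log10 q values from the authors' peak caller, a score in whole numbers that was not used, and a summit offset for LSD1 and Pol II. The histone lists began at a −log10 q of about 3 and the LSD1 and Pol II lists at a −log10 p of 3. A peak list holds no read counts, and list length mixes enrichment with depth. The study gives read totals per library, which differed between arms, most for H3K27ac, with fewer unique pairs in GSK cells. They were not used to scale the lists.

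Coordinates are mm10, counted from 1, and all peaks lay within GRCm38.p6 chromosomes. Genes, TSSs and sequence came from RefSeq on GRCm38.p6. Overlap meant 1 bp. Python 3.11.15, pandas 2.3.3 and numpy 2.4.6 were used, and overlap and motif code was tested on simulated data. All 10 receptor genes were to be named with all promoter peaks, and per locus LSD1 and H3K27ac peaks and H3K4me1 or H3K4me2 regions of 1 arm. Genes with a receptor's promoter pattern were named if they were among the 19 partners, apart from a result not reported here. The exceptions, chosen after their values were seen, were neighbouring genes at shared peaks and H3K4me3 or Pol II sites away from promoters. The genes, partner list and motifs were chosen with earlier results of these data known.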

Additional observations from a re-analysis of the deposited data

How the results depend on the processing

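No paired analysis was possible because each antibody has 1 peak list per arm. Values under other settings were compared for 41 results. Counts and shares were held to be the same within 1.5 times the reported value. The median H3K4me3 percentile change (-1.92 by fold, -0.329 by −log10 p) is neither, and was also held to be the same. Of the 99 values, 72 stayed the same in this sense and 27 moved, as follows. With promoters of 2.5 kb on each side, 8 genes had Veh LSD1, and 7 each had Veh and GSK H3K4me1. With a −log10 q of at least 5, promoter calls were 1 for Veh LSD1, 1 for GSK LSD1, 0 for GSK H3K4me2, 3 for Veh H3K27ac, 1 for Veh Pol II and 0 for GSK Pol II. The same setting left 27 H3K4me1 regions in both arms, 4 in Veh cells only, and 6 H3K4me2 regions in Veh cells only. With lists of equal length, Veh H3K27ac promoters were 1, H3K4me1 regions of Veh cells only 2 and H3K4me2 regions of Veh cells only 6. With 10 kb flanks, windows held 33 Veh and 45 GSK H3K4me1, 13 Veh and 2 GSK H3K4me2, 15 Veh and 15 GSK H3K4me3, and 3 GSK H3K27ac peaks. Those flanks also gave 25.0% LSD1 overlap at promoters (1 of 4), 27 shared and 0 Veh-only H3K4me1 regions, and 32 enhancers. With 50 bp on each side of the summit, RUNX letters stood in 2 sites. The cause was not tested where a value moved, apart from windows or lists that were shorter by construction. LSD1 and Pol II calls at receptor promoters rest on peaks of modest strength, and with 1 library per arm none of the calls of 1 arm can be told from variation between libraries.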
